A study of Mus musculus with 10 samples.

Results

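Trimethylation of lysine 4 on histone H3 (H3K4me3) was examined at 2595 intragenic regions, stretches inside protein-coding genes and away from the ends of every such gene. They were taken from the union of 8 H3K4me3 peak lists, in which overlapping or touching peaks were merged into 137922 regions. A region was kept when it lay on an autosome, had a peak in all 8 libraries, lay wholly inside a protein-coding RefSeq gene, and was more than 5 kb from both ends of every protein-coding gene. Of 22694 autosomal regions with a peak in all 8 libraries, these made up 11.4%, beside 14125 regions within 5 kb of a gene end and 5974 between genes. The regions were thus chosen by the presence of peaks in these libraries, and that each has a peak in every library is no finding.

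The libraries came from NeuN-positive (neuronal) nuclei sorted from hippocampal area CA1 of male mice aged 3 months. Transgenic mice for CaMKIIδC, a splice form of calcium/calmodulin-dependent kinase II delta, gave 4 libraries, and littermate controls gave the other 4. The promoter driving the transgene is not given in the sources used here. The protocol mentions the drug vorinostat and vehicle drinking water, but no library used here carries a drug label and the labels do not tie the libraries to different animals. P-values therefore measure the spread between these libraries, which may be technical. The lists held 51903 to 66811 peaks in control and 60388 to 102285 in transgenic libraries, with transgenic replicate 1 at the top. Reads are not counted in these lists, and the sequencing depth behind them is unknown.

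H3K4me3 is laid down mainly around active and poised promoters, where it tends to spread from the first nucleosomes into the transcribed side. Many long neuronal genes carry promoters inside the gene, from which shorter transcripts and shorter proteins are made, as at Bdnf. Active enhancers mostly carry monomethylated lysine 4, and the strongest of them can carry some H3K4me3 too. A mark inside a gene may therefore belong to an internal promoter, to a noncoding transcript or to neither.

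The following stretches show the sequences around which the results turn, each the 200 bases directly before a RefSeq-listed transcript start (GRCm38.p6, the coordinates of mm10), printed 5′ to 3′ on the transcribed strand with CpG dinucleotides in capitals. The Bdnf starts at 109692436, 109693027 and 109694409 on chromosome 2 share 1 marked region, and the start at 109709383 of the same gene lies in no region of any library. The starts of Nrxn3 (the downstream neurexin 3 start), Shank3 and Gnas are coding starts more than 5 kb inside the gene. That of Shank3 is the only start listed for its gene. The Nfix start is one of those in the widest region, and Kcnq1ot1 and Airn are noncoding RNAs that start inside Kcnq1 and Igf2r.
Bdnf, chr2:109692236-109692435, plus strand: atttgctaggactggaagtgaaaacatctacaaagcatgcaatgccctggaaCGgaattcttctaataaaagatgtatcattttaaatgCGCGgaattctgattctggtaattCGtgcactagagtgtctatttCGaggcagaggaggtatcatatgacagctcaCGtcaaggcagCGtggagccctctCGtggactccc
Bdnf, chr2:109692827-109693026, plus strand: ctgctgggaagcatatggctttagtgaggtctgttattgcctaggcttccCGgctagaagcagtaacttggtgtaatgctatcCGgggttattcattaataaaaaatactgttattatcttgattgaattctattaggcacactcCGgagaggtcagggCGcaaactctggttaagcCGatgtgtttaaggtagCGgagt
Bdnf, chr2:109694209-109694408, plus strand: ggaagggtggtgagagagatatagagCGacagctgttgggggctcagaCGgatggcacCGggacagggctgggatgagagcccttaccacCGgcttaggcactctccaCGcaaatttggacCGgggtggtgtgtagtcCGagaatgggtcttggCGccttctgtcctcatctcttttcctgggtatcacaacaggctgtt
Bdnf, chr2:109709183-109709382, plus strand: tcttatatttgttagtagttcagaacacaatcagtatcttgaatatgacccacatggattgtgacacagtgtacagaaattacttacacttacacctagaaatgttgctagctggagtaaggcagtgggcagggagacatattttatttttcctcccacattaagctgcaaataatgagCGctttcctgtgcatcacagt
Nrxn3, chr12:89812283-89812482, plus strand: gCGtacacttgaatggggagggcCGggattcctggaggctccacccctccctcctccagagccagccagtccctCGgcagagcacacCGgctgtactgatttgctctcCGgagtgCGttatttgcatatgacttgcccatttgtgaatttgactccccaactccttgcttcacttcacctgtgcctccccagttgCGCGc
Shank3, chr15:89499408-89499607, plus strand: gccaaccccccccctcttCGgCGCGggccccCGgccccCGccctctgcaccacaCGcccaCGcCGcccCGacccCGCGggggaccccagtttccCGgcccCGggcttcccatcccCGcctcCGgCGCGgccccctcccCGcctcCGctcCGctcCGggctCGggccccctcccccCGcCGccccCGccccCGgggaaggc
Gnas, chr2:174329806-174330005, plus strand: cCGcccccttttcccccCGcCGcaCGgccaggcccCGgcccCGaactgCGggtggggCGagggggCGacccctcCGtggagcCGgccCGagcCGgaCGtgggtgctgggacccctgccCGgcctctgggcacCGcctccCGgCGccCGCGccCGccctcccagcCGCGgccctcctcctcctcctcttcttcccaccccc
Nfix, chr8:84773411-84773610, minus strand: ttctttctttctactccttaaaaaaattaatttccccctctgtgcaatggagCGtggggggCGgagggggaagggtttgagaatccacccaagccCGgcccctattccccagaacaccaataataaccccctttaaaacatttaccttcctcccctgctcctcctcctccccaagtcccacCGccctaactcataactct
Kcnq1ot1, chr7:143296548-143296747, minus strand: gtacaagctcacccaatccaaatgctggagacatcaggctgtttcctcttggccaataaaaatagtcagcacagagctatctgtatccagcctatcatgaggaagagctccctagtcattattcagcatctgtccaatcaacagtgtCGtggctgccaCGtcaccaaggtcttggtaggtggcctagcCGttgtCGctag
Airn, chr17:12741111-12741310, plus strand: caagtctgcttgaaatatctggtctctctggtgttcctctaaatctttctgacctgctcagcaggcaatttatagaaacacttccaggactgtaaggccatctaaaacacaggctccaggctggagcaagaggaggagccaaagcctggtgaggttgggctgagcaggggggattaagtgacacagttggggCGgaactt

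The 3 marked Bdnf stretches hold 8, 6 and 8 CpG, and the unmarked one holds 1. Shank3 holds 26 and Gnas 23, with GC contents of 85.0% and 81.0%. Kcnq1ot1 and Nfix hold 4 each and Airn 1, so that a marked start was not always rich in CpG.

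Covered length, the number of base pairs of a region that lie under a library's peaks, was the measure compared. In the intragenic regions its mean over the 8 libraries ran from 256.75 to 10979.75 bp with a median of 999.5 bp. It was above 4 kb in 111 regions and below 500 bp in 415. The median was 1579.25 bp for regions at gene ends and 704 bp between genes. Ranked by the authors' peak score within each list, the intragenic regions lay at a median percentile of 73.7, against 87.7 at gene ends and 61.5 between genes. The median covered length was 890, 949, 941 and 1031 bp in control replicates 1 to 4 and 1039, 1056, 1046 and 1063 bp in the transgenic replicates. The groups did not overlap in this median, while the summed length did, with 3.33 to 3.70 Mb in control and 3.64 to 3.82 Mb in transgenic libraries. This was not particular to intragenic regions. Between genes the median was 587 to 659 bp in control and 737 to 914 bp in transgenic libraries. At gene ends the groups overlapped in it, with 1491 to 1655 bp in control and 1471 to 1669 bp in transgenic libraries.

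Of the 2484 intragenic regions off chromosome 18, for which listed starts were at hand, 677 (27.3%, 95% Wilson interval 25.5 to 29.0, counting error only) lay over a listed transcript start of the gene that holds them. Among these, 247 lay over the outermost listed start of the gene, although inside its RefSeq span, and 430 only over starts downstream of it. Another 67 lay over the listed start of a long noncoding RNA, 159 over the body of another noncoding gene or pseudogene, and 1581 over none of these. The 677 regions over a start were the wider ones, with a median of 1746 bp and a score percentile of 85.7. Those over a long noncoding RNA start had 1270 bp and 81.8, and those over none of these had 744.75 bp and 67.5.

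**Figure D1:**
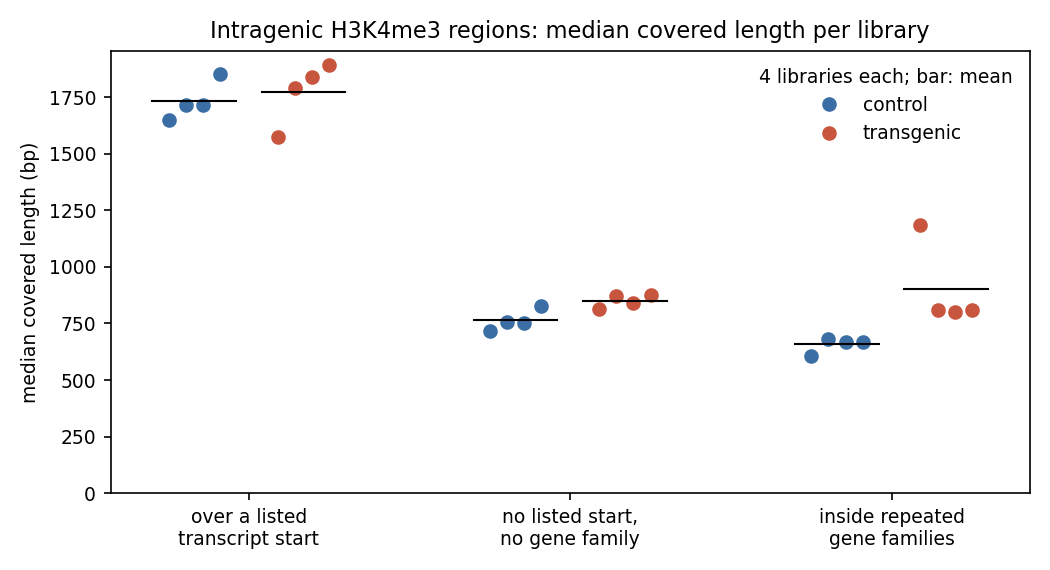
Median covered length (bp, vertical axis) of the intragenic regions in each library, for 677 regions over a listed start, 1460 over no listed start and outside the repeated gene families (both off chromosome 18), and 379 inside those families. Points are libraries, 4 per group, and bars are group means. Among the family regions transgenic replicate 1 stands at 1183 bp, the other transgenic libraries at 802 to 811 bp and the controls at 608 to 681 bp.

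Seen from the starts, RefSeq lists 2053 coding starts more than 5 kb from both ends of every coding gene, in 1521 genes. Of these, 811 (39.5%) lay in an intragenic region of the set, 103 in regions with a peak in 1 to 7 libraries, and 1065 (51.9%) in no region at all. Counting every region with a peak in all 8 libraries, in the set or not, 885 of the 2053 internal starts were marked. By that count 60.9% of 18031 listed starts near gene ends were marked. Marked and unmarked internal starts differed in CpG number. The 300 bp window from 250 bases before to 50 bases after the start held a median of 16 CpG at starts in the set, 6 at starts in regions of 1 to 7 libraries, 4 at starts in no region and 22 at marked starts near gene ends. With 0 to 2 CpG, 5.39% of internal starts lay in the set. This share was 14.0% with 3 to 5 CpG, 35.3% with 6 to 10, 72.9% with 11 to 15 and 83.2% with 16 or more.

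**Figure D2:**
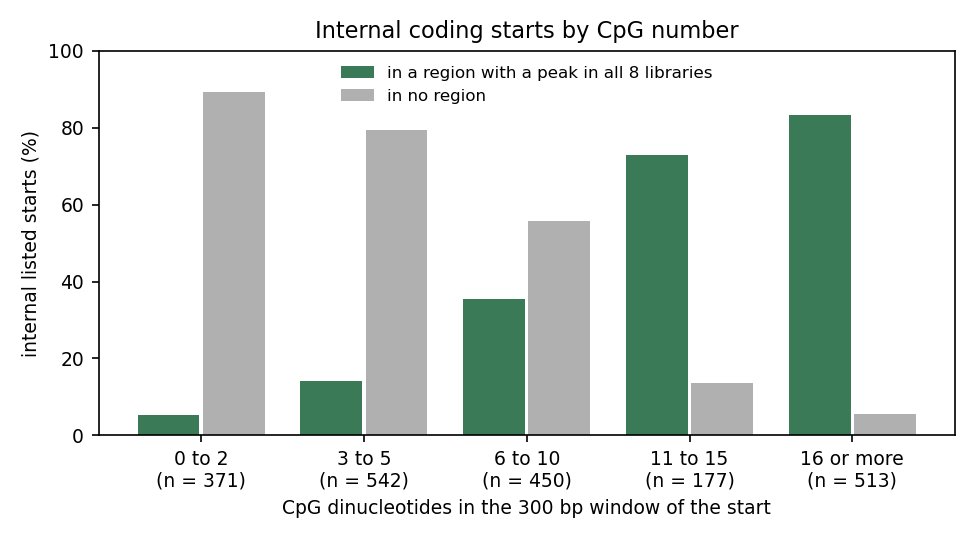
Share of internal listed coding starts (%, vertical axis) that lie in an intragenic region with a peak in all 8 libraries (green) or in no region (grey), by the number of CpG in their 300 bp window (horizontal axis, number of starts below each class). The green share goes from 5.39% at 0 to 2 CpG to 83.2% at 16 or more, and the grey share from 89.2% to 5.46%.

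Short promoter motifs were counted in the same windows on both strands. The letters TATAAA (the TATA box) occurred at 6.54% of starts in the set, 16.9% of internal starts in no region and 12.7% of all 20084 listed autosomal coding starts. GGGCGG (the GC box) occurred at 56.97%, 13.5% and 47.0%. CCGGAAG (bound by ETS factors) occurred at 7.15%, 1.502% and 11.9%, and at 18.9% of marked starts near gene ends. TGACGTCA (the cAMP response element) occurred at 2.10%, 0.751% and 2.30%. The GC box, the ETS letters and the cAMP response element contain CpG, so these counts move with the CpG number given above. A match is a count of letters, not a bound site.

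Peaks reached further into the transcribed side than upstream. In the 516 regions over a single listed start, the covered length downstream of the start had a median of 1106, 1159.5, 1151 and 1235 bp in the control libraries and 1041.5, 1208, 1206.5 and 1239 bp in the transgenic ones. Upstream it was 383.5 to 485.5 bp. The downstream side was the longer one in 87.4% to 90.5% of the regions, depending on the library.

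**Figure D3:**
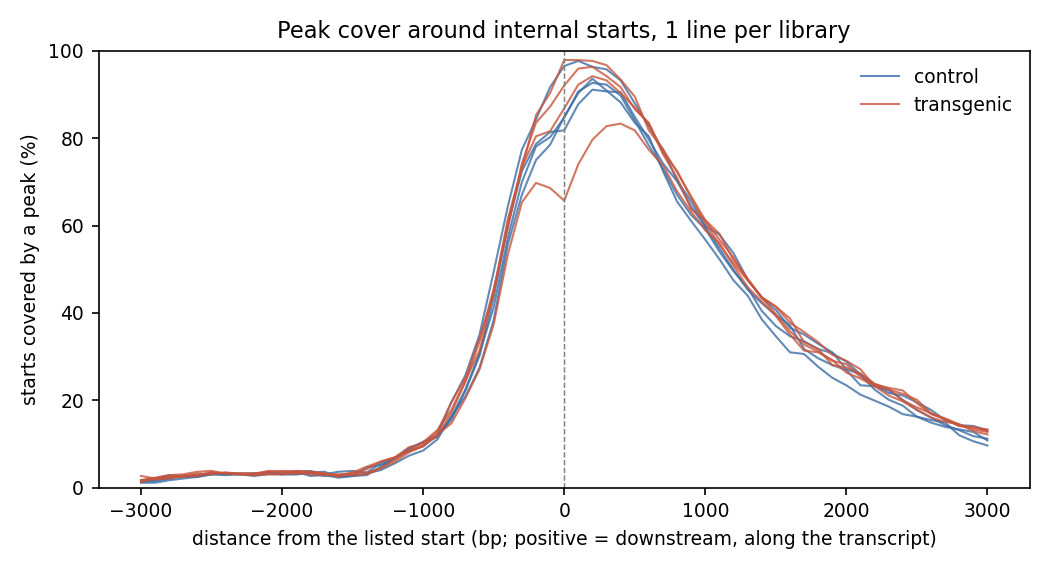
Share of the listed starts of the 516 single-start regions covered by a peak (%, vertical axis) by distance from the start (bp, positive downstream), with 1 line per library, control in blue and transgenic in red. All lines fall off more slowly downstream, and transgenic replicate 1 dips to 65.7% at the start itself where the others hold 81.8% to 97.9%.

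The base of the start was itself left out of the peaks at some starts, more in some libraries than in others. In single control libraries 79.4% to 96.05% of the 811 starts in the set were covered. In transgenic replicates 1 to 4 the shares were 64.6%, 85.6%, 92.1% and 97.3%. Among these 811 starts the base was covered in all 8 libraries at 491 (60.5%), and at 584 (72.0%) in all 7 libraries without transgenic replicate 1. The share covered in all 8 was 70.8% of 96 starts with 0 to 5 CpG and 81.6% of 288 with 6 to 15. It was 56.1% of 271 starts with 16 to 30 CpG (77.9% without transgenic replicate 1). At starts with 31 or more CpG it was 23.1% of 156 (37.2% without transgenic replicate 1). The libraries differed widely at those 156 starts. They were covered at 57.7%, 57.7%, 44.2% and 93.6% in control replicates 1 to 4 and at 23.1%, 57.1%, 78.2% and 99.4% in the transgenic replicates. The spread lay within the groups, which overlapped. The start of Shank3 (26 CpG before it, printed above) was covered in 2 libraries and that of Gnas in 3. The printed starts of Nfix, Kcnq1ot1 and Nrxn3 and the Bdnf starts at 109693027 and 109694409 were covered in all 8. CpG-poor starts could also be missed, with Airn (1 CpG before it) covered in 5 libraries. The Bdnf start at 109692436 was covered in 7. Another Nfix start, at 84775828 with 4 CpG in its 300 bp window, was covered in 2.

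The widest intragenic region (chr8:84763702-84775942, mm10) lay in Nfix, a nuclear factor I transcription factor gene, over 3 of its listed starts. It was covered over 10453, 10908, 10559 and 10987 bp in control and 10899, 11808, 10925 and 11299 bp in transgenic libraries. The second (chr4:147478674-147489373) lay in the zinc finger gene Zfp982, with 7766 to 9128 bp in control and 8798 to 10412 bp in transgenic libraries. Zbtb20, a zinc finger gene of hippocampal CA1 development, followed with 7817 to 8625 and 8333 to 9725 bp (chr16:43502469-43512522), over no listed start. The region shared by Schip1 and the read-through gene Iqschfp had 6838 to 8587 and 7754 to 8666 bp (chr3:68571185-68581310). Its summits, the highest points of the peaks, lay within 108 bp of each other in the 8 libraries. In each of these 4 regions the ranges of the 2 groups overlapped.

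Regions were also counted by gene list. The lists were chosen with earlier results of these data known, so their shares are counts and no test of a gene class. Of 64 listed transcription factor and chromatin regulator genes, 43 held at least 1 region, and 115 in all. Tcf4, a basic helix-loop-helix factor gene, held 6, the widest covered over 7032 to 7635 bp in control and 7272 to 7801 bp in transgenic libraries (chr18:69519154-69527097). Lhx2, a LIM homeobox gene, had 7004 to 7324 and 7243 to 7913 bp over its downstream start at 38351308 on chromosome 2, which overlaps the noncoding gene Gm27197. At both genes the groups overlapped.

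Of 37 synaptic adhesion and scaffold genes, 26 held 52 regions, 17 of them over a listed start. Nrxn2, a presynaptic adhesion gene, held 1 region over the noncoding gene Gm52381, covered over 7440, 7247, 7922 and 7682 bp in control and 7611, 7910, 7200 and 7844 bp in transgenic libraries (chr19:6496593-6504827). No start of Nrxn2 is in the table used here. Nrxn3 held 2, over its starts at 88953390 (1573 to 2408 and 1881 to 2511 bp) and 89812483 (1617 to 2271 and 1642 to 2504 bp), while its first listed start at 88794504 lay in no region. Shank3, a postsynaptic scaffold gene, held 4. One lay over its listed start at 89499608 (2204 to 2873 and 2308 to 2761 bp), and the other three had mean covered lengths of 1943, 1300 and 533 bp. The region of Ctnna2 and of Lrrtm1, a synaptic adhesion gene nested within it, had 6613 to 7061 and 6520 to 7150 bp. Values of the 2 groups overlapped at each of these regions.

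Bdnf, the gene of brain-derived neurotrophic factor, is read from several alternative promoters, some of them inside the gene. Its 1 intragenic region (chr2:109691968-109695975) spanned the 3 starts printed above and was covered over 3338, 3486, 3803 and 3283 bp in control and 3199, 3617, 3532 and 3688 bp in transgenic libraries. The starts at 109674700 and 109677032 lay in regions of all 8 libraries near the gene end, and those at 109709383 and 109722921 in no region. In the same list of neurotrophin and neuregulin genes, 6 of 14 held a region. Nrg1, a neuregulin gene, had 2187 to 3509 bp in control and 2937 to 3714 bp in transgenic libraries.

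Imprinted loci, where 1 parental copy is silenced and a nested promoter often gives the silencing RNA, had a region in 7 of 15 genes. Kcnq1 held 1 over the start of Kcnq1ot1 (chr7:143293392-143297021), covered over 2864, 3157, 2967 and 3444 bp in control and 2915, 3155, 2807 and 3132 bp in transgenic libraries. Igf2r held 1 at Airn (chr17:12741221-12742951), of 1327, 1605, 1526 and 1440 bp and of 1387, 1563, 1469 and 1626 bp. Gnas, the stimulatory G protein alpha gene, held 1 over 3 starts (chr2:174326681-174332067), of 4513, 4370, 4712 and 4774 bp and of 3521, 4483, 4553 and 4970 bp. Its outermost listed start at 174284320 lay in a region of only 3 libraries. The region in Trappc9 at the imprinted noncoding gene Peg13 is described with the comparison of the groups.

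Signalling and cytoskeletal genes were also represented. Of 14 cyclic nucleotide phosphodiesterase genes 10 held 24 regions, among them Pde2a with 5601 to 6818 and 6310 to 6785 bp over 4 listed starts, and Pde4d with 11 regions in a gene of 1302 kb. Of 43 small GTPase regulator genes 22 held a region, with Trio at 5084 to 5909 and 5636 to 6073 bp and Kalrn at 4592 to 4922 and 4955 to 5372 bp. Of 34 cytoskeletal genes 22 did so, with Ank2 at 4286 to 5241 and 4722 to 5147 bp. The counts were 17 of 25 for RNA-binding and splicing regulators, 13 of 36 for protein kinases, 11 of 35 for ion channels and 5 of 23 for neurotransmitter receptors, with Gabra5 at 3575 to 3900 and 4083 to 4249 bp. At Kalrn and Gabra5 all transgenic libraries lay above all controls, with centred log2 differences of 0.03 ± 0.04 and 0.04 ± 0.05 (SE). Camk2d, the gene from which the transgene derives, held none, and its listed start lay in a region of all 8 libraries. The lists differ in gene length, from a median of 85.0 kb for imprinted loci to 513 kb for synaptic genes. Of 13319 autosomal coding genes longer than 10 kb, 12.4% held a region. That share is not matched to the lists in length, and the lists were not chosen blind to these data.

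Marker lists were counted over genes longer than 10 kb, since a shorter gene cannot hold a region under the 5 kb rule. At least 1 region lay in 3 of 8 neuronal (37.5%) and 2 of 6 CA1 pyramidal cell genes (33.3%). The same held for 1 of 6 interneuron (16.7%) and 2 of 6 astrocyte genes (33.3%), beside 12.4% of all autosomal coding genes of that length. Rbfox3, which encodes NeuN, held a region of 1573, 1642, 1793 and 1966 bp in control and 844, 1835, 2297 and 2324 bp in transgenic libraries, with transgenic replicate 1 lowest. Map2, a dendritic microtubule gene, held one of 3794 to 3937 bp in control and 3963 to 4451 bp in transgenic libraries, which did not overlap but differed by 0.01 ± 0.05 on the centred log2 scale (SE). No gene of the oligodendrocyte, microglia, endothelium or cardiomyocyte lists, Mbp among them, held an intragenic region. Of these lists 9, 6, 7 and 5 genes are longer than 10 kb. Their median gene lengths were 17.0, 29.5, 61.1 and 23.9 kb. The median was 65.9 kb in the neuronal, 61.2 kb in the CA1, 56.8 kb in the interneuron and 62.5 kb in the astrocyte list. Shorter genes leave less length under the 5 kb rule, and with so few genes these shares do not rank the cell types. Of the 3 regions of the astrocyte list, 2 lay in the bicarbonate transporter gene Slc4a4. Peaks at gene ends in all 8 libraries were found at 9 of 9 neuronal, 7 of 8 CA1, 10 of 12 interneuron, 5 of 12 oligodendrocyte, 5 of 10 astrocyte, 3 of 9 endothelial, 1 of 10 microglial and 1 of 9 cardiomyocyte genes.

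The regions were spread over 1648 genes, of which 1198 held 1, 394 held 2 to 4 and 56 held 5 or more. The genes were long, with a median of 87.2 kb against 17.5 kb for all autosomal coding genes. At 1125 (68.3%) a peak in all 8 libraries lay within 2 kb of a gene end, while 357 had no peak at either end in any library. The widest regions of genes with unmarked ends lay in Adcy9 (adenylyl cyclase 9), Cpeb2 (a regulator of translation), Ywhaz (14-3-3 zeta), Tmeff2 (a transmembrane protein) and Zmynd8 (a reader of chromatin marks). The regions in Tmeff2 and Zmynd8 lay over listed starts of these genes, inside the RefSeq span. That in Cpeb2 lay over the listed start of a long noncoding RNA and that in Adcy9 over no listed start. No start of Ywhaz is in the table used here. Adcy9 was covered over 6971 to 7475 and 6921 to 7441 bp, Cpeb2 over 6000 to 7098 and 5169 to 7597 bp and Ywhaz over 5231 to 6179 and 4994 to 6866 bp. Of the 1648 genes, 1350 list predicted transcripts.

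A few genes held many regions. Gm38510 on chromosome 1 held 34, and the overlapping gene models Gm37013, Gm38666 and Gm38667 on chromosome 18, which contain 54 protocadherin genes, held the same 28. Zfp993 held 27, Gm12880 held 21, and Zfp982 and Zfp978 held 20 each. Of the 52 genes off chromosome 18 with 5 or more regions, 38 had none over a listed start, and 44 of the 52 have a start in the table used here. Chromosomes 7 and 4 had the most regions, with 12.7% and 12.5% of all.

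Between transgenic and control libraries, no intragenic region was called broader or narrower at an adjusted p of 0.05 (limma, Benjamini-Hochberg over 72683 regions). Over all regions fitted, 33 (0.0454%) were called broader and 2 (0.00275%) narrower. At an unadjusted p under 0.05, 112 intragenic regions (4.32%) were higher in the transgenic libraries, beside 4.5% of all regions fitted and 5.25% of autosomal regions with a peak in all 8. The lower ones numbered 124 (4.78%), beside 1.81% and 4.83%. All 4 transgenic libraries lay above all 4 controls at 129 regions (4.97%, against 5.18% of autosomal regions with a peak in all 8) and below them at 9 (0.347%, against 0.361%). Each share was close to that of autosomal regions with a peak in all 8, while the lower share was above that of all regions fitted. For 1303 regions (50.2%) the 95% interval of the difference lay within 1.5-fold, and a p that misses the threshold does not show that the others were alike. A region marked in fewer nuclei and a shorter domain in each nucleus cannot be told apart in these data.

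Direction depended on scaling. Relative to each library's median region, the median log2 difference (transgenic minus control) was -0.04 over the intragenic regions, -0.06 over autosomal regions with a peak in all 8 and 0.03 over all regions fitted. Without that centring the median of all regions was higher by 0.11 and that of the intragenic regions was 0.06, and 10 regions were then called broader. The regions with a difference above 0 numbered 1049 with centring and 1774 without. Regions over a listed start had a median of -0.09 with centring and 0.02 without. With centring it was -0.05 when transgenic replicate 1 was left out, and -0.05 with stricter peaks.

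On the higher side, the 4 regions of smallest p lay in Vmn2r63, Nlrp9b, Skint11 and Gm5155. Vmn2r63, a vomeronasal receptor gene, had 910, 1157, 1243 and 1620 bp in control and 2640, 2091, 1760 and 2242 bp in transgenic libraries, which differ by 0.68 ± 0.13 on the log2 scale (SE; adjusted p = 0.0568 in limma). Nlrp9b, of the NLR family, had 861, 800, 1264 and 790 bp and 2027, 1861, 1510 and 1633 bp (0.76 ± 0.15, limma adjusted p = 0.0712). Skint11, of a family of immunoglobulin-like genes, had 601, 681, 796 and 649 bp and 2107, 1358, 1006 and 1764 bp (0.94 ± 0.19, limma adjusted p = 0.0735). Gm5155 had 237, 263, 266 and 338 bp and 1591, 1373, 754 and 707 bp (1.51 ± 0.32, limma adjusted p = 0.0923). At all 4 regions every transgenic library lay above every control library, and none of them passed the threshold. They were picked by p from these same values, so their separation is no further support. The Gm5155 difference was 0.93 with 500 bp added before the log and 0.68 with equal numbers of top-ranked peaks per library.

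On the lower side, Trappc9 at Peg13 had 6501, 7044, 6988 and 6803 bp in control and 6595, 6539, 6613 and 6705 bp in transgenic libraries (-0.15 ± 0.03, limma adjusted p = 0.136). Tnrc18 had 6072, 7093, 7168 and 7091 bp and 6256, 6145, 6984 and 6667 bp (-0.18 ± 0.04, limma adjusted p = 0.174). Cit, the citron kinase gene, differed by -0.24 ± 0.06 (limma adjusted p = 0.187) and Chn1, a Rac GTPase-activating gene, by -0.18 ± 0.04 (limma adjusted p = 0.191). These were wide regions with small differences, and their groups overlapped in covered length. Without centring the differences were -0.05 in Trappc9, -0.07 in Tnrc18, -0.13 in Cit and -0.07 in Chn1.

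**Figure D4:**
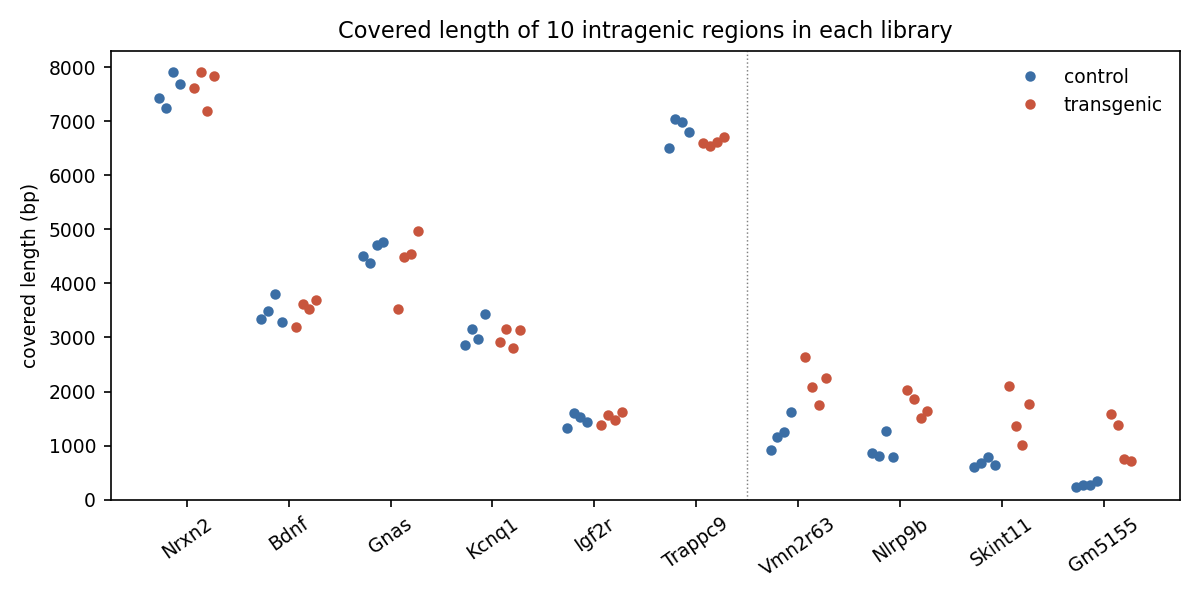
Covered length (bp, vertical axis) of 10 intragenic regions in each of 4 control (blue) and 4 transgenic (red) libraries. Left of the dotted line the groups overlap. Right of it, at Vmn2r63, Nlrp9b, Skint11 and Gm5155, picked for the smallest p on the higher side, the transgenic libraries lie above the controls.

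Regions inside repeated gene families were then set apart, a grouping chosen after these values were seen and therefore given without a test. They number 379 and lie in Zfp900 to Zfp999 (122), Nlrp (64), vomeronasal receptor (78), Sult2a (37), Cyp2 and Cyp3 (38) and Skint (12) genes and in the Gm37013 models (28). Of the 351 off chromosome 18, 4 lay over a listed start. Their summed covered length was 304.6, 322.6, 320.7 and 329.6 kb in control and 538.5, 399.9, 392.3 and 384.9 kb in transgenic libraries. Transgenic replicate 1 was far the highest, and the other three sums also lay above every control. Within the Zfp900 to Zfp999 genes they did not, since transgenic replicate 4 summed to 130.3 kb, between the controls of 129.3 to 131.8 kb. In the 2216 remaining regions the sums overlapped, with 3028 to 3368 kb in control and 3106 to 3432 kb in transgenic libraries. The family regions had a median score percentile of 59.9 and the others 76.1. Regions between genes, at 61.5, were like the families. There the median covered length was 587 to 659 bp in control, 914 bp in transgenic replicate 1 and 737 to 761 bp in the other transgenic libraries. The median log2 difference was 0.23 in the families (0.34 without centring) and -0.06 elsewhere (0.04 without centring). Without transgenic replicate 1 it was 0.11 in the families and -0.04 elsewhere, and with stricter peaks it was 0.51 and -0.02. Differences were above 0 in 78.6% of family regions and 33.9% of the 2216 others, beside 40.4% of all intragenic regions. Without centring these shares were 90.0% and 64.7%, beside 68.4%. With centring but without transgenic replicate 1 they were 64.1% and 39.3%, beside 42.9%. The grouping was chosen from the same values, so these shares are no test of it. No family region was called at an adjusted p of 0.05 in limma. Transgenic replicate 1 also had the most peaks, and its part in this difference beyond the values without it was not tested. How reads that match several copies of a repeated family were handled is not given in the sources used here.

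**Figure D5:**
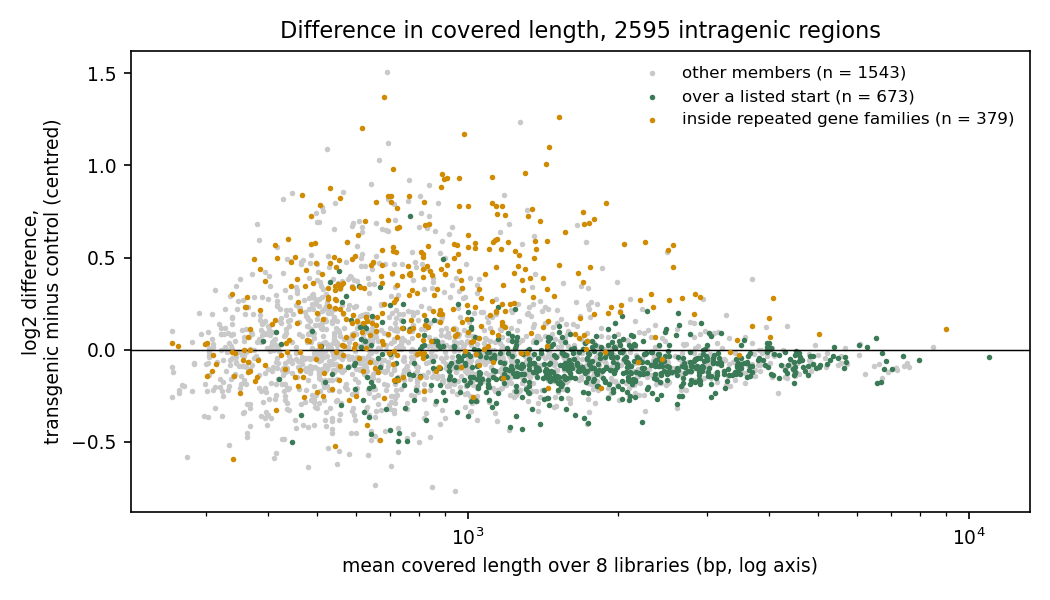
Log2 difference in covered length, transgenic minus control and centred on each library's median region (vertical axis), against mean covered length (bp, log axis) for the 2595 intragenic regions. Family regions (orange, 379) have a median of 0.23 and the 2216 other regions, of which 673 over a listed start are green, a median of -0.06.

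MicroRNA genes lay under 7 of the regions. The widest was in Gse1 over Mir7687, with 4241 to 4593 bp in control and 4163 to 4905 bp in transgenic libraries, followed by Gpc1 over Mir149 (2547 to 2966 and 2324 to 2811 bp) and Pde4d over Mir1904. The last had 2448, 2618, 2171 and 2525 bp in control and 1743, 2198, 2163 and 2192 bp in transgenic libraries, with the highest transgenic value above the lowest control value.

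At the edge of the 5 kb rule, the nearest regions inside it lay in Skint1 (5003 bp from a gene end, mean covered length 443 bp) and Egfl7 (5014 bp, 1254 bp). The nearest regions left out lay in Nlrp2 (4987 bp, 2939.5 bp) and Ccdc105 (4972 bp, 1146.5 bp). A further 637 autosomal intragenic regions had a peak in 7 libraries, and 56 regions with a peak in all 8 lay on the sex chromosomes.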

How the data were processed

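The H3K4me3 ChIP-seq peaks of 4 transgenic and 4 control libraries were analysed, and 1 input library per genotype was not analysed here. The submitters' processing notes name mm10 as the build and, among the tools, Bowtie2 2.0.2, MACS2, SAMtools 1.3.1, limma, DiffBind, deepTools 3.0.1 and FastQC 0.11.5, without saying which step each served. The authors deposited 1 list per library, whose rows give a peak's position, score, fold enrichment, −log10 p-value and −log10 q-value. Ranks by the deposited score were used within a list and nowhere else. No deposited −log10 q-value was under 1.31. A deeper library gives more and wider peaks, and depth is unknown.

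Peaks were merged into union regions, and the base pairs covered in each library were counted. Values of log2(covered bp + 100), with the library's median over regions of all 8 libraries subtracted, were fitted with limma 3.58.1 (R 4.3.3; trended, robust variance) over all 72683 regions that 2 or more libraries had peaks in, with Benjamini-Hochberg adjustment at 0.05. Differences understate changes of short regions because of the added 100 bp.

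Gene spans and transcript starts came from RefSeq (GRCm38.p6). The start table used here covers no gene of chromosome 18, so the 111 regions there were left out of shares over starts. Named were the 6 widest regions, 4 regions of smallest p per direction, the 6 genes with most regions, the 5 widest regions of genes with unmarked ends, the 3 widest over microRNA genes, noncoding genes, pseudogenes, none of these, and with and without a listed start, the 2 widest per gene list with a set of single genes, and the 2 regions on each side of the 5 kb limit; the text gives a selection. Regions called without centring were added after their values were seen. The regions and gene lists were chosen with earlier results of these data known. Alternatives tried were other pseudocounts, scalings, variance models, filters, peak thresholds, distance limits, a replicate block and leaving out each library.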

Additional observations from a re-analysis of the deposited data

Results flagged for a closer look

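In 198 groups of 4 libraries examined, 1 library stood apart from the other three in 16 by Dixon's ratio. Chance flags about 1 in 20 groups, and the values share libraries, so the flags are not independent. Of the 16, 10 were transgenic replicate 1.

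Transgenic replicate 1 was high in the repeated gene families. The median covered length of family regions was 1183 bp there and 802 to 811 bp in the other transgenic libraries, and the sum was 538.55 kb against 384.87 to 399.88 kb. Regions in vomeronasal receptor genes summed to 90.1 kb against 60.55 to 65.47 kb, and those in Sult2a genes to 47.92 kb against 31.74 to 33.32 kb. Control replicate 1 had a family median of 608 bp, where the other controls had 669 to 681 bp.

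In the flagged values of intragenic regions outside the families transgenic replicate 1 was low. Its median covered length outside the families was 1010 bp against 1109 to 1128.5 bp. Its median cover downstream of single listed starts was 1041.5 bp against 1206.5 to 1239 bp. Starts with 6 to 15 CpG were covered at 88.54% there and at 95.83% in each other transgenic library. Single regions were low in Cacna1e (4830 bp against 5504 to 5637 bp), in Pde4d over Mir1904 (1743 bp against 2163 to 2198 bp) and in Shank3 at 89532453 (1754 bp against 2091 to 2135 bp).

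The other flags were in controls. Control replicate 3 was low in Tcf4 (7032 bp against 7552 to 7635 bp) and high in Nlrp9b, at 19996789 (1264 bp against 790 to 861 bp) and at 20038100 (1193 bp against 990 to 995 bp). Control replicate 1 was low in Tnrc18 (6072 bp against 7091 to 7168 bp), and control replicate 4 was high in Vmn1r63 (1042 bp against 620 to 687 bp). The causes were not tested.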

How the results depend on the processing

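The median log2 difference over the intragenic regions, -0.04, was 0.064 without centring, -0.082 with quantile normalization and 0.0033 with peaks of −log10 q of at least 5; leaving out 1 library gave -0.05 to -0.03. The count called broader in limma, 0, became 10 without centring, 1 with quantile normalization, 1 with array weights and 41 when all union regions were fitted, and ran from 0 to 5 with 1 library left out (2 without control replicate 3, 5 without control replicate 4, 2 without transgenic replicate 3 and 1 without transgenic replicate 4). The count called narrower, 0, became 1 with array weights and 10 with all union regions, and 0 to 1 with 1 library left out. The number of intragenic regions, 2595, became 1476 where peaks had to cover the larger part of the region in every library, and 2641 to 2743 with 1 library left out. The share over a listed start, 27.3%, was 40.6% under that cover rule, 22.7% with a peak in at least 7 libraries, 33.9% with stricter peaks, 30.98% with equal numbers of top-ranked peaks and 30.7% with peaks up to 500 bp apart merged (26.0% to 27.0% with 1 library left out); these alternatives for the share were chosen after seeing the data. Except where values are given, the causes were not tested. None of the 8 regions of smallest p reversed its direction under the alternatives run. The replicate block gave 0 broader and 0 narrower regions. Same-numbered libraries deviated together with correlations of 0.007, -0.001, -0.054 and 0.119, and 1 of 4 matched its own number best, so the numbers were not taken as pairs.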
